A study of Sus scrofa with 9 samples.

Results

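Of the 6765 genes that a single gene symbol names on the Affymetrix Porcine Genome Array, 31 encode collagens, laminin chains, integrins, fibronectin (FN1) or a nidogen, and their signals were followed through 3 stages of molar development in the pig. Members were taken by symbol: every collagen chain except COL17A1, every laminin chain, every symbol beginning with ITGA or ITGB except ITGA6, and FN1, NID1, NID2 and HSPG2. They were covered by 59 of the 23999 probe sets tested; 15 genes had 1 probe set and 16 had several, in which case the probe set with the highest mean log2 signal over the 9 arrays stood for the gene. The symbols took in 7 fibrillar collagens, 2 basement membrane collagens, 5 other collagens, 3 laminin chains, FN1 and NID2, 6 integrin alpha and 5 integrin beta subunits, and ITGB1BP2, which binds an integrin and is no subunit. COL1A1, COL4A1, NID1, HSPG2, the laminin alpha chains and the fibril-associated collagens were not analysed here.

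The tissue was the additional molar germ of the mandible, with the dental lamina attached, from embryos and fetuses of the Wuzhishan miniature pig at embryonic day 50 (E50), E60 and E70. At E50 the first molar (M1) was at the cap stage and the second molar (M2) had not begun. At E60 M1 had reached the bell stage and M2 was starting, and at E70 M1 was at the late bell stage while M2 had altered little. Per the study's methods, germs of a stage were taken from the same litter and RNA was extracted from a pool of them. The 3 arrays per stage carry labels of biological replicates, but whether they hold separate pools or parts of a shared pool was not given in the sources used here, so p-values measure only the spread between these arrays, which may be technical, and litter and stage cannot be told apart.

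The extracellular matrix of a tooth germ lies in the dental mesenchyme, where fibrillar collagens and fibronectin form a meshwork, and in the basement membrane below the dental epithelium, where laminins and type IV collagen form sheets linked by nidogens and perlecan. Cells hold on to both through integrins, receptors in which an alpha and a beta subunit pair at the cell surface. Which subunits pair decides what is bound: alpha2 with beta1 binds collagen, alphaV with several beta subunits binds fibronectin, vitronectin and osteopontin, and beta2 occurs on leukocytes.

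The E50 arrays stood apart from the other 6 in technical measures. Their background, taken as the 95th percentile of 23 control probe sets without a target, was 77.7 to 379 signal units, against 37.9 to 54.4 at E60 and 38.1 to 55.8 at E70, and their hybridisation spike-ins had a geometric mean of 63310 against 4227 and 3571. The ratio of the 3′ to the 5′ control probe set of GAPDH had a geometric mean of 35.5 for E50 and of 8.19 and 5.28 for the later stages. The other control ratios differed more: geometric means for E50, E60 and E70 were 51.98, 1.48 and 1.40 for EF1A. For actin they were 918, 31.95 and 24.3, with 165 to 2308 on the E50 arrays. Every difference from E50 therefore carries these differences too, and stage and array quality cannot be told apart in it. E60 and E70 lay closer to each other than to E50 in these measures. Their arrays still did not overlap in the GAPDH ratio (6.98 to 9.24 and 4.36 to 6.47) or the spike-ins (4150 to 4268 and 3086 to 3938). Nor did they overlap in the actin ratio (30.1 to 34.9 and 22.9 to 26.3), but they did in that of EF1A. Of the 31 genes, 19 lay above background on all 3 arrays of E50, 25 on those of E60, 23 on those of E70, and 18 on all 9 arrays. Within E50 the median SD of a gene's log2 signal was 0.67, within E60 0.21 and within E70 0.38.

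From E50 to E60, ITGAV rose, and COL5A3, COL6A2, ITGB2, ITGB7 and LAMB2 fell, by limma with Benjamini-Hochberg adjusted p under 0.05 over all probe sets. That is 1 of 31 higher, where 7.85% of all probe sets were higher, and 5 of 31 lower, where 10.6% of all were lower. From E60 to E70 none of the 31 passed in limma, against 0.0833% of probe sets higher and 0.338% lower. At an unadjusted limma p under 0.05, 6 were lower and 0 higher, where 3.83% of all probe sets were lower and 3.90% higher. From E50 to E70, on the brightest probe sets, ITGA2 and ITGAV rose (2 of 31, with 8.16% of all probe sets higher), and COL5A1, COL5A3, FN1, ITGB2 and ITGB3 fell (5 of 31, with 10.6% lower). The median log2 change of the 31 genes was -0.10, -0.05 and -0.39 in these comparisons, beside -0.18, 0.05 and -0.11 over all probe sets. Without overlap between the arrays, 8 of the 31 were higher and 10 lower from E50 to E60 (17.5% and 21.7% of all probe sets), 7 higher and 7 lower from E60 to E70 (15.7% and 12.4%), and 6 higher and 11 lower from E50 to E70 (17.5% and 19.9%). With only the arrays of the compared stages in the limma fit, 0 were higher and 3 lower from E50 to E60 (3.58% and 5.12% of all probe sets) and 0 higher and 2 lower from E50 to E70 (3.03% and 4.79%). The comparisons with E50 share its 3 arrays, and the comparisons with E60 share those of E60. Centring each array on its median moved the median of all probe sets to 0.60 from E50 to E60 and to 0.60 from E50 to E70, and with it the split of called genes to 8 higher and 2 lower for the first and to 7 higher and 3 lower for the second. The shares of all probe sets called after this centring were not computed, so these counts have no base rate beside them. None of the 13 called changes turned sign under median centring or under quantile normalisation, whereas 9 of the 31 changes from E50 to E60, 7 from E50 to E70 and 2 from E60 to E70, none of them called, did so under at least 1 of these scalings.

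**Figure D1:**
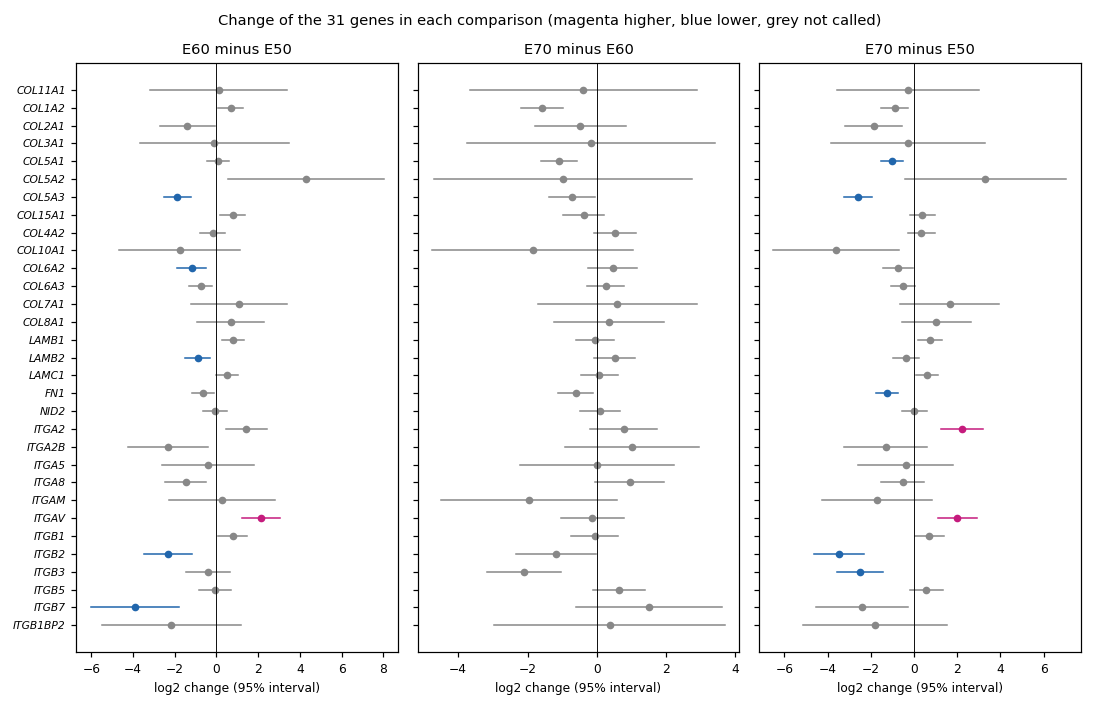
Log2 change of each of the 31 genes (points) with its 95% interval (lines) from E50 to E60 (left), E60 to E70 (middle) and E50 to E70 (right), ordered by role, with genes called higher in magenta, called lower in blue and not called in grey. The middle panel holds no called gene, and its 7 fibrillar collagens, the uppermost rows, all lie left of 0.

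On their brightest probe sets, all 7 fibrillar collagens had a log2 change below 0 from E60 to E70, where 45.9% of all probe sets did, and none of them passed. The changes ran from -1.59 to -0.17 with a median of -0.71, and had the same sign under both other scalings. For 4 of them, COL1A2, COL5A1, COL5A2 and COL5A3, every E70 array lay below every E60 array, an arrangement that 12.4% of all probe sets showed. COL1A2 encodes the alpha2 chain of type I collagen, the main fibre of bone, dentin and dental mesenchyme. At E50 its signal was 749.5, 672 and 934, at E60 it was 1395, 1355 and 1041, and at E70 512, 411 and 346. The stages did not overlap: E60 was highest and E70 lowest. The log2 change from E60 to E70 was -1.59 (SE 0.26), a 3.00-fold lower signal, with adjusted p = 0.0732 by limma on all 9 arrays and 0.0437 by limma on the 6 arrays of these stages. From E50 to E60 it was 0.69 (SE 0.26, adjusted p = 0.110) and from E50 to E70 -0.90 (SE 0.26, adjusted p = 0.0517). The second probe set of COL1A2 gave -0.96 (SE 0.37) from E60 to E70, again with all E70 arrays below all E60 arrays. Further fibrillar collagen probe sets above background on all arrays of both stages changed by -0.54 and 0.32 (COL5A1) and 0.09 (COL5A3). None of these was called.

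COL5A1 encodes the alpha1 chain of type V collagen, which sits inside type I fibrils and limits their thickness. Its signal was 2787, 2445 and 2225 at E50, 2538, 2399 and 2905 at E60 and 1413, 1087 and 1167 at E70. The E50 and E60 arrays overlapped and the E70 arrays lay below all of them. COL5A1 fell by 1.03 on the log2 scale from E50 to E70 (SE 0.22, 2.04-fold, adjusted p = 0.0195 by limma); the adjusted p was 0.0685 without E70 replicate 2 and 0.0719 without E70 replicate 3, and the change was -0.32 after median centring. By limma the call was lost with median centring (adjusted p = 0.446), array weights (0.0736), the replicate block (0.0541), the mean of the probe sets (0.0878) and E50 and E70 fitted alone (0.0884). The second brightest COL5A1 probe set, above background on all arrays, changed by -0.41 (SE 0.34) from E50 to E70 and was not called. A dimmer one, above background on 8 arrays, was called lower at E60 (-2.12, adjusted p = 0.00694 by limma) and at E70 (-1.80, adjusted p = 0.0101) than at E50.

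COL5A3 encodes the alpha3 chain of type V collagen. Its signal was 734, 945 and 936 at E50, 209, 257 and 244 at E60 and 149, 189 and 105 at E70. The stages were separate, and each was lower than the one before. COL5A3 fell by 1.88 on the log2 scale from E50 to E60 (SE 0.28, 3.67-fold, adjusted p = 0.00623 by limma) and by 2.59 from E50 to E70 (SE 0.28, 6.03-fold, adjusted p = 0.00160). Both calls held with any 1 of the 9 arrays left out. A dimmer COL5A3 probe set, above background on all E60 and E70 arrays and on 1 of the E50 arrays, had changes of 0.82 and 0.91 that were not called. With the mean of the gene's probe sets both COL5A3 calls were lost (-1.02 in each comparison, adjusted p = 0.235 by limma).

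COL3A1, the chain of type III collagen, could not be followed from E50. The E50 arrays gave 5.78, 134 and 726, the E60 arrays 67.3, 63.6 and 107, and the E70 arrays 91.7, 78.7 and 44.4. The E50 arrays spanned all the others, and the changes from E50 had intervals of -3.68 to 3.48 (E60) and -3.85 to 3.31 (E70). COL5A2, its neighbour on the chromosome with 0 protein-coding genes between them in the RefSeq annotation of Sscrofa11.1, was as scattered at E50, from 2.44 to 402, but steady at E60 (427 to 480) and E70 (206 to 264). COL2A1 and COL11A1, the cartilage fibril collagens, had changes from E60 to E70 of -0.47 and -0.39 with intervals that held 0. Beside COL2A1, the summed signal of 4 measured cartilage markers of 10 listed was 1416 to 1780 at E60 and 3505 to 5049 at E70, with HAPLN1 supplying the higher sum (816 to 1011, then 3207 to 4826; change 1.98, adjusted p = 0.0791) while ACAN was called lower and COMP changed by -2.11 (adjusted p = 0.698); their part in the COL2A1 signal was not tested.

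Marker levels of several cell types differed between the stages, in both directions. In bulk tissue, fewer cells of a type and less RNA per cell cannot be told apart. The summed signal of 8 mesenchyme markers of 11 listed ranged over 160745 to 172603 (E50), 107355 to 116848 (E60) and 78168 to 116912 (E70). VIM alone supplied 109814 to 121747, 56913 to 60491 and 44131 to 82583 of these sums. All 8 were above background on every array. By limma 3 were called lower and 1, LUM, higher at E60 than at E50. At E70 5 were called lower and 0 higher than at E50, with 0 called from E60 to E70. The summed signal of 8 osteoblast and odontoblast markers of 10 listed was 46911 to 57494 (E50), 58179 to 62225 (E60) and 10367 to 11172 (E70), nearly all of it from SPP1 and IBSP, which were called lower from E60 to E70. ALPL of the same list had a change of 1.09 over that interval (adjusted p = 0.173), with 1255 to 1779 on the E70 arrays above 621 to 807 on those of E60, and 3 of the 8 were below background on all E70 arrays. The sums of 9 endothelial markers, 2180.4 to 4653, and of 10 skeletal muscle markers, 689 to 8960, were highest on the E50 arrays and lowest on the E70 arrays, while the epithelial and cartilage sums were highest at E70. Only 4 of the 9 endothelial and 5 of the 10 muscle markers were above background on all E50 arrays. From E50 to E60 the endothelial changes ran from -3.20 to 2.43, with 1 called lower and 0 higher by limma. For muscle 6 were called lower and 0 higher. From E50 to E70 the lower calls were 2 and 6, with 0 higher. The part of any of these markers in the collagen signals was not tested.

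**Figure D2:**
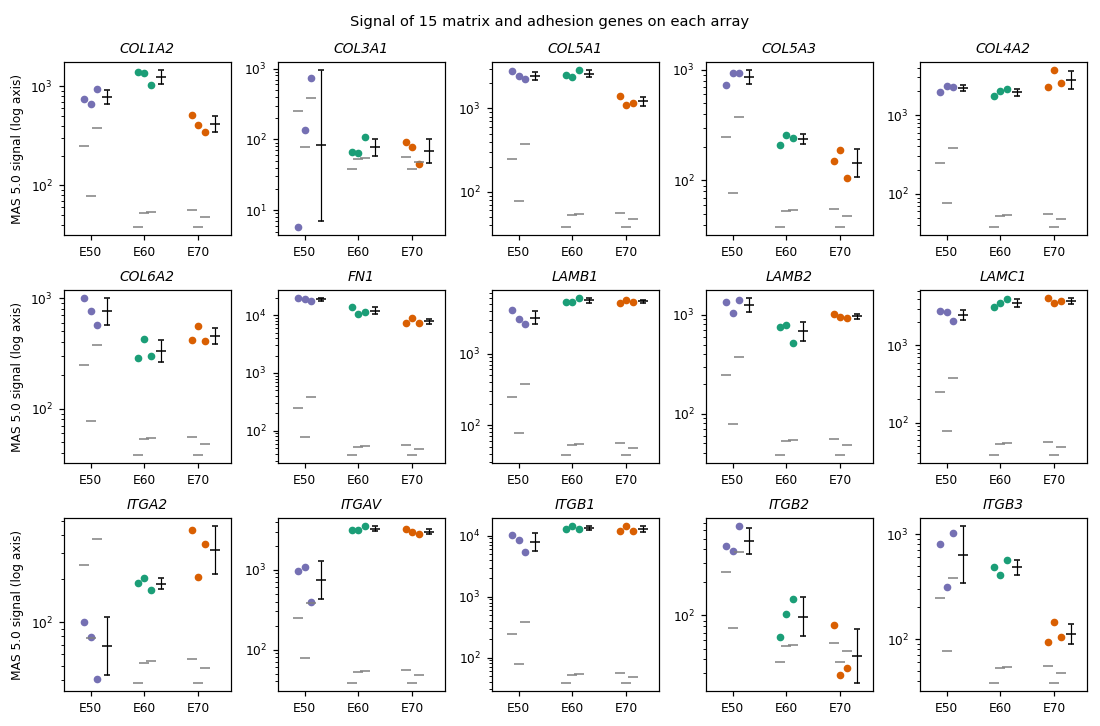
Signal on each array (coloured points; log axes that differ between panels) of 15 genes at E50, E60 and E70, with the mean and SD of the log2 values (black, n = 3 arrays) and the background of each array (grey dashes). COL5A3 lay lower at each later stage, COL1A2 was highest at E60, and ITGAV was 398 to 1085 at E50 against 2809 to 3532 at E60 and E70.

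The other collagens held 1 call. COL6A2, a chain of the beaded filaments of type VI collagen around cells, had signals of 997, 767 and 570 at E50, 285, 427 and 301 at E60 and 422, 554 and 411 at E70. Its E50 arrays were all above its E60 and E70 arrays, and those of E60 and E70 overlapped. COL6A2 fell by 1.19 on the log2 scale from E50 to E60 (SE 0.30, 2.28-fold, adjusted p = 0.0339 by limma). This call was lost with median centring (-0.42, adjusted p = 0.440) and quantile normalisation (0.0776), and on leaving out E50 replicate 1 (adjusted p = 0.0548) or 2 (0.0517), E60 replicate 1 (0.119), 2 (0.0574) or 3 (0.111), or E70 replicate 1 (0.0558) or 3 (0.0588). COL6A3, a partner chain of the same filament, changed by -0.76 (SE 0.23, adjusted p = 0.0613) from E50 to E60, and its sign turned to 0.01 with median centring. COL7A1, of the anchoring fibrils under epithelia, COL8A1 and COL10A1, the collagen of hypertrophic cartilage, had changes between -3.61 and 1.66 over the 3 comparisons, and none passed.

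None of the genes of basement membrane sheets passed from E60 to E70 by limma. COL4A2, the alpha2 chain of the type IV collagen sheet, had signals of 1978, 2325 and 2252 at E50, 1730.4, 1998 and 2112 at E60 and 2269, 3742 and 2517 at E70. The E70 arrays were above the E60 arrays and overlapped the E50 arrays, and the change from E60 to E70 was 0.52 (95% interval -0.09 to 1.12). COL15A1, found where basement membrane meets the tissue below, changed by 0.78 (SE 0.25, adjusted p = 0.0689 by limma) from E50 to E60 and by -0.38 from E60 to E70. NID2, a nidogen that joins laminin to type IV collagen, changed by -0.07 from E50 to E60 (95% interval -0.66 to 0.52; 0.71 after median centring) and by 0.09 to E70 (-0.50 to 0.68).

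Laminin chains LAMB1 and LAMC1, beta1 and gamma1, occur together in many laminins. LAMB1 signals were 4015, 3084 and 2622 at E50, 5346, 5322 and 6026 at E60 and 5176, 5623 and 5316 at E70. LAMC1 signals were 2770.4, 2674 and 2067 at E50, 3191, 3564 and 4043 at E60 and 4131, 3499 and 3720.3 at E70. For both, on these brightest probe sets, all E60 and E70 arrays were above all E50 arrays, and E60 and E70 overlapped. The changes from E50 to E60 were 0.80 (SE 0.23, adjusted p = 0.0513 by limma) for LAMB1 and 0.53 (SE 0.23, adjusted p = 0.146) for LAMC1, and neither was called. Between E60 and E70 the intervals were -0.59 to 0.49 for LAMB1 and -0.45 to 0.55 for LAMC1. Other probe sets of LAMC1 changed by 1.16, -0.92 and -0.28 from E50 to E60, and none was called. On that with -0.92 (SE 0.35), above background on 8 of the 9 arrays, all E60 and E70 arrays lay below all E50 arrays. The direction of LAMC1 from E50 thus depended on the probe set. The other LAMB1 probe set changed by 0.51 from E50 to E60 and was not called.

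LAMB2, the beta2 chain, which takes the place of beta1 in other laminins, was called lower at E60. Its signals were 1353, 1045 and 1419 at E50, 756, 796 and 523 at E60 and 1029, 958 and 921 at E70. The E60 arrays were the lowest and no stage overlapped another. LAMB2 fell by 0.89 on the log2 scale from E50 to E60 (SE 0.25, 1.86-fold, adjusted p = 0.0491 by limma), against a change of -0.12 with median centring, where it was not called (adjusted p = 0.782). With E50 replicate 2 left out it was still called, whereas without E50 replicate 1 or 3 (adjusted p = 0.0728 and 0.0653), E60 replicate 1, 2 or 3 (0.109, 0.0924 and 0.155) or E70 replicate 1, 2 or 3 (0.0763, 0.0788 and 0.0824) it was not.

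FN1, the fibronectin that cells lay down early in a matrix and bind through RGD-binding integrins, had signals of 19761.5, 18819 and 17503 at E50, 14082, 10619 and 11292 at E60 and 7379, 8764 and 7272 at E70 on its brightest probe set. The stages were separate, each below the one before. By that probe set FN1 fell by 1.26 on the log2 scale from E50 to E70 (SE 0.22, 2.40-fold, adjusted p = 0.00874 by limma). The call was lost with median centring (-0.55, adjusted p = 0.175), array weights (0.0542) and the fit of E50 and E70 alone (0.0509), and the changes of -0.65 (E50 to E60; 0.13 after median centring) and -0.61 (E60 to E70) were not called. The next probe set of FN1, also above background on all 9 arrays, did not follow it from E50. Its signals were 281, 363 and 892 at E50, 1210.0, 1191 and 1332 at E60 and 824, 613 and 789 at E70, a change of 1.47 (SE 0.43, adjusted p = 0.0516) from E50 to E60. Between E60 and E70 both probe sets had all E70 arrays below all E60 arrays, with a change of -0.76 (SE 0.43) in the second. The direction of FN1 from E50 thus depended on the probe set.

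**Figure D3:**
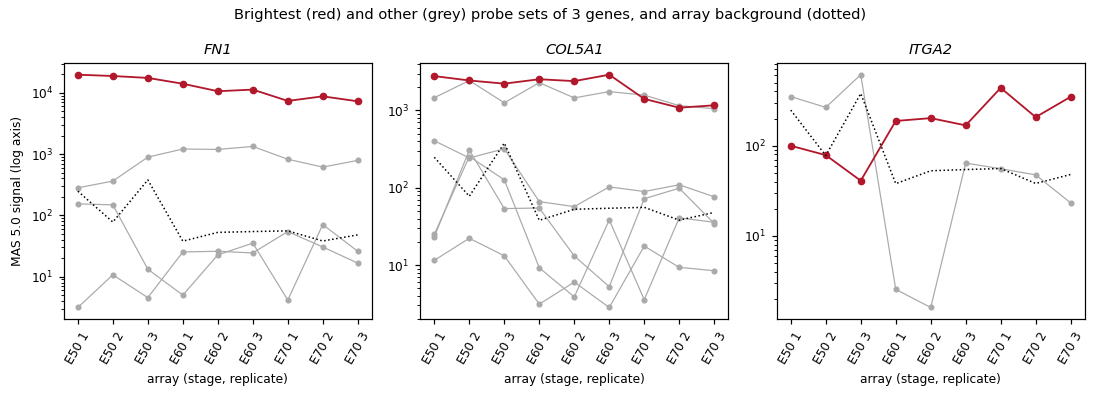
Signal on each of the 9 arrays (log axis) of the brightest probe set (red) and the other probe sets (grey) of FN1, COL5A1 and ITGA2, with the background of each array (dotted). The probe sets of FN1 and ITGA2 ran in opposite directions from E50 to E60, while the pair of COL5A1 probe sets that stayed above background on all arrays lay close together. A dimmer COL5A1 probe set was called lower at E60 than at E50.

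Across the 16 genes with several probe sets, 13 of the 28 other probe sets were above background on all 3 arrays of E50 or E60, and 5 of these 13 had the sign of the brightest probe set from E50 to E60. For E60 to E70 it was 6 of 12.

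Among integrin alpha subunits ITGAV rose, as did ITGA2 on its brightest probe set. ITGAV, the alphaV subunit, had signals of 959, 1085 and 398 at E50, 3148, 3154 and 3532 at E60 and 3199, 2996 and 2809 at E70. All E50 arrays were below all others, and E60 and E70 overlapped. ITGAV rose by 2.14 on the log2 scale from E50 to E60 (SE 0.39, 4.39-fold, adjusted p = 0.0113 by limma) and by 2.01 from E50 to E70 (SE 0.39, 4.02-fold, adjusted p = 0.0126). Both calls held with any 1 of the 9 arrays left out, and with only the arrays of the compared stages in the fit the adjusted p was 0.0504 and 0.0616. Between E60 and E70 the change was -0.13 (95% interval -1.03 to 0.77).

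ITGA2, the alpha2 subunit of a collagen receptor found on epithelia and platelets, had signals of 99.8, 78.6 and 40.9 at E50, where 1 of 3 arrays was above background, 188, 202 and 168 at E60 and 437, 207 and 348 at E70. The stages did not overlap and each was above the one before. ITGA2 rose by 2.21 on the log2 scale from E50 to E70 (SE 0.41, adjusted p = 0.0116 by limma), a size that rests on E50 values below background; with those set to their array's background it was at least 1.62-fold higher. The call was lost with array weights (adjusted p = 0.0514) and with E50 and E70 fitted alone (0.0571), and the change of 1.44 from E50 to E60 had an adjusted p of 0.0502. Its other probe set, above background on all E50 arrays and on 1 array each of E60 and E70, was called lower at E60 than at E50 (adjusted p = 0.0213 by limma), at least 7.63-fold with the E60 arrays below background set to their background. From E50 to E70 that probe set changed by -3.29 (SE 1.30, adjusted p = 0.119 by limma), with all E70 arrays below all E50 arrays, and was not called. The direction of ITGA2 from E50 thus depended on the probe set. Beside ITGA2, the summed signal of 9 epithelial markers of 11 listed ranged over 9565 to 13226 (E50), 13529 to 14496 (E60) and 28336 to 31347 (E70); 4 of the 9 were called higher at E70 than at E50, all 9 were above background on all E70 arrays, and their part in the ITGA2 signal was not tested. ITGA8, a receptor subunit of mesenchyme, changed by -1.47 (SE 0.42, adjusted p = 0.0505) from E50 to E60. ITGA5, of the main fibronectin receptor, ITGA2B, of platelets, and ITGAM, of myeloid cells, had no call on their brightest probe sets, and that of ITGAM was above background on no array. The second ITGAM probe set was called lower at E60 (adjusted p = 0.0123 by limma) and at E70 (0.00717) than at E50, but was above background on E50 replicate 3 alone.

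ITGB1, the beta subunit shared by most collagen and laminin receptors, had signals of 10351, 8459 and 5315 at E50, 12638.5, 14376.5 and 12749 at E60 and 11972, 14399.8 and 11955 at E70. The E50 arrays were below all others and E60 and E70 overlapped. The change of 0.77 from E50 to E60 was not called (SE 0.29, adjusted p = 0.105 by limma), and that from E60 to E70 was -0.06 (95% interval -0.73 to 0.62). Among the 31 members, the genes most like ITGB1 over the 9 arrays were LAMB1 (Pearson r = 0.941 of log2 signals), ITGAV (0.935) and LAMC1 (0.870). These points share the gap between the E50 arrays and the rest, and over the 6 arrays of E60 and E70 the same values were 0.247, 0.0334 and -0.41.

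ITGB2, the beta2 subunit of leukocyte integrins, had signals of 433, 390.1 and 653 at E50, 63.3, 103 and 141 at E60 and 82.2, 28.5 and 33.4 at E70. The E50 arrays were above all others, E60 and E70 overlapped, and 1 of the E70 arrays was above background. ITGB2 fell by 2.30 on the log2 scale from E50 to E60 (SE 0.49, 4.92-fold, adjusted p = 0.0197 by limma) and by 3.49 from E50 to E70 (SE 0.49, adjusted p = 0.00429), the latter at least 9.02-fold with the E70 arrays below background set to their background. The first of these was not called without E60 replicate 1 (adjusted p = 0.0729) or 2 (0.0625), with median centring (-1.53, adjusted p = 0.0560), quantile normalisation (0.0526) or array weights (0.143). Beside it, the summed signal of 8 leukocyte markers of 11 listed ranged over 3722 to 5653 (E50), 1469 to 1619 (E60) and 755 to 866 (E70). From E50 to E60 the markers AIF1, C1QC and CD14 fell while C1QA and LCP1 rose, 3 of the 8 were below background on all E50 arrays, 2 on all E60 arrays and 2 on all E70 arrays, and their part in the ITGB2 signal was not tested.

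ITGB3, the beta3 subunit, pairs with alphaV, abundant on osteoclasts, or with the ITGA2B product on platelets. Its signals were 808, 313 and 1023 at E50, 490, 404 and 560 at E60 and 93.2, 144 and 104 at E70. E50 and E60 overlapped, and the E70 arrays were below both. ITGB3 fell by 2.51 on the log2 scale from E50 to E70 (SE 0.46, 5.71-fold, adjusted p = 0.0104 by limma; 0.0518 with the E50 and E70 arrays alone). From E60 to E70 the change was -2.11 (SE 0.46, 4.30-fold, adjusted p = 0.180 on all 9 arrays), and with limma on those 6 arrays alone, where 0.975% of probe sets were called lower, it was called, with SE 0.23 and adjusted p = 0.0281. COL1A2 was the other of 2 members called there, and 0 were called higher, with 0.775% of probe sets higher.

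ITGB5, another partner of alphaV, changed by 0.64 from E60 to E70 (95% interval -0.12 to 1.40), with all E70 arrays, 2223 to 2623, above all E60 arrays, 1415 to 1838. ITGB7, a subunit of lymphocyte integrins, fell by 3.90 on the log2 scale from E50 to E60 (SE 0.90, adjusted p = 0.0251 by limma), but it was above background on 1 of 3 E50 arrays and on no E60 array; the adjusted p was 0.0841, 0.0712 and 0.0763 without E60 replicate 1, 2 and 3.

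**Figure D4:**
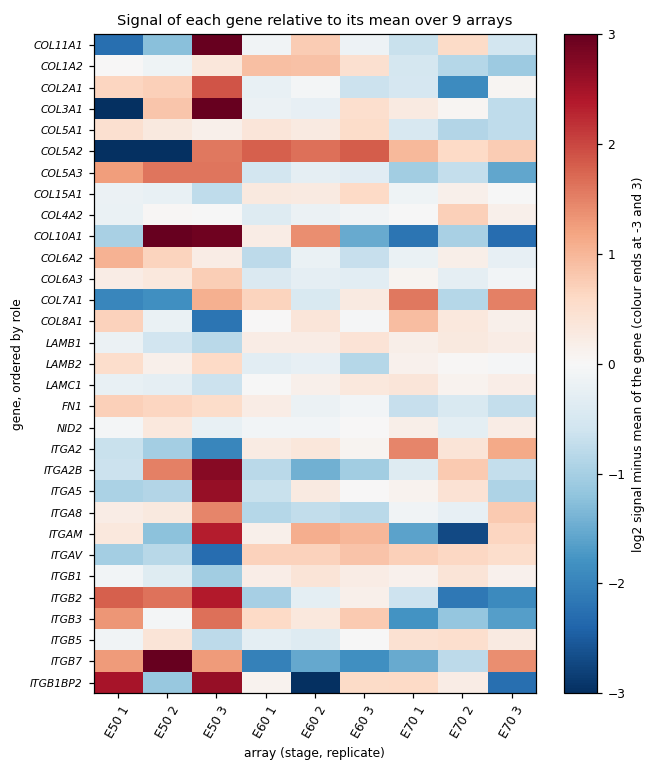
Log2 signal of each of the 31 genes (rows, ordered by role) on each of the 9 arrays (columns), minus the mean of the gene, in colour from blue (lower) to red (higher), with the scale ending at -3 and 3. E50 replicate 3 departs from E50 replicates 1 and 2 in COL11A1, COL5A2 and ITGA5, genes below background on those 2 arrays.

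Among other proteins that integrins bind, several fell from E60 to E70. Of 19 measured ligands, 0 were higher and 5 lower, where 0.338% of all probe sets were lower, and their median log2 change was -0.88, beside 0.05 over all probe sets. IBSP, bone sialoprotein, fell by 5.79 (SE 0.26, adjusted p = 0.000540 by limma), THBS2, a thrombospondin, fell by 2.63, SPP1, osteopontin, fell by 2.44, and POSTN, periostin of dental follicle and ligament, fell by 2.11. From E50 to E60, 2 of the 19 were higher and 2 lower (7.85% and 10.6% of all probe sets): POSTN rose by 2.05 and IBSP by 2.37, while ICAM1, which binds beta2 integrins, fell by 1.80 and FBN1, fibrillin, fell by 1.08. From E50 to E70, 1 was higher and 8 lower (8.16% and 10.6% of all), with the smallest adjusted p for IBSP, SPP1, ICAM1 and THBS2, at -3.42, -2.46, -2.48 and -1.92. IBSP and SPP1 are also among the osteoblast and odontoblast markers above.

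Enzymes and factors of collagen synthesis and secretion, 18 of which were measured, held 2 higher and 3 lower from E50 to E60 (7.85% and 10.6% of all probe sets), 0 higher and 1 lower from E60 to E70 (0.0833% and 0.338%), and 2 higher and 5 lower from E50 to E70 (8.16% and 10.6%). LOX, which cross-links collagen, rose by 0.92 from E50 to E60 (SE 0.21, adjusted p = 0.0236 by limma) and fell by 1.65 from E60 to E70 (SE 0.21, adjusted p = 0.0265). COLGALT1, which adds galactose to collagen, fell by 0.98 and TMEM38B, an ion channel of the endoplasmic reticulum, by 1.32 from E50 to E60. From E50 to E70 TMEM38B fell by 1.82, LOXL4 fell by 1.51 and LOXL1 fell by 0.85. CREB3L2, a transcription factor of secretory cells, was at background on all E50 arrays and at least 2.15-fold higher at E60 and at least 2.77-fold higher at E70; these bounds set the mean of the bright stage against the background of the dim arrays.

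Of 10 other basement membrane and linker proteins, 0 were higher and 1 lower from E50 to E60 (7.85% and 10.6% of all probe sets), 0 passed from E60 to E70 in either direction (0.0833% and 0.338%), and 2 were higher and 2 lower from E50 to E70 (8.16% and 10.6%). SPARC, a collagen-binding protein of bone and mesenchyme, fell by 1.34 (SE 0.22, adjusted p = 0.00834 by limma) and, from E50 to E70, by 2.08. FBLN1, fibulin, and SDC1, a syndecan of epithelia, rose by 1.33 and 1.30 from E50 to E70, and TINAGL1 fell by 2.17.

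Among 33 genes of the integrin adhesion complex, 6 were higher and 4 lower from E50 to E60 (7.85% and 10.6% of all probe sets), 0 passed from E60 to E70 (0.0833% and 0.338%), and 6 were higher and 1 lower from E50 to E70 (8.16% and 10.6%). CD151 and DDR1, a tetraspanin partner of laminin-binding integrins and a collagen receptor kinase, fell by 1.57 and 1.10 from E50 to E60, and CD81, another tetraspanin, rose by 1.04. From E50 to E70 CD81 rose by 1.45 and VCL, vinculin, which ties integrins to actin, by 1.14, while CD47, a partner of beta3 integrins, fell by 1.39. PTPRA, a phosphatase of the complex, was at background on all E50 arrays and at least 2.51-fold higher at E60 and at least 2.42-fold higher at E70. Median log2 changes of the 33 were -0.10, 0.20 and -0.15 in the 3 comparisons, beside -0.18, 0.05 and -0.11 over all probe sets.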

How the data were processed

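RNA pooled from molar germs was hybridised to 9 Affymetrix Porcine Genome Arrays, 3 per stage. The authors computed 1 intensity per probe set with MAS5, and the deposited values are on a linear scale; each array had a mean of about 500.1 after trimming 2% of probe sets at each end. Depth does not apply to arrays, and their number limits the precision. Stages were taken from the labels.

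Values were analysed as log2 intensities with a floor of 1. The 124 array controls among 24123 probe sets were left out. Of the 23999 others, 10069 had 1 symbol in the platform annotation, 198 several and 13732 none, and only those with 1 were named; 2 probe sets that pair a member symbol with another were left out. A probe set was above background on an array if it exceeded the 95th percentile of 23 controls without a target there. All 31 gene numbers were found in the RefSeq table.

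The stages were compared by limma 3.58.1 in R 4.3.3 (lmFit and eBayes on all 9 arrays, 3 contrasts and an F test), the nearest installed form of the study's moderated F test, with Benjamini-Hochberg adjustment over all 23999 probe sets and a threshold of 0.05. The fit was run on simulated data with the array spread of E60 and E70, which does not cover the wider spread of E50. Tables and plots used Python 3.11.15, pandas 2.3.3 and Matplotlib 3.10.9. Members and gene lists were chosen with earlier results of these data known. Array values are given for members that passed in a comparison and were above background on all arrays of the brighter stage, and for 12 genes that the rule names, where measured; ITGB5 and COL5A2 are described by their ranges. Of each pathway list, up to 4 genes with the smallest adjusted p per comparison are named. Alternatives were median centring, quantile normalisation, a floor of 16, an offset of 32, probe sets above background only (17101), the mean of a gene's probe sets, array weights, a trended robust prior, a replicate block, 2 stages alone, and each array left out.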

Additional observations from a re-analysis of the deposited data

How the results depend on the processing

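By the F test over the 3 stages 8 of the 31 genes passed, beside 17.7% of all probe sets. With 1 array left out, the counts ran from 1 to 4 (higher at E60 than E50; 1 with all arrays), 1 to 7 (lower; 5), 0 to 0 (higher at E70 than E60; 0), 0 to 1 (lower; 0; the 1 came without E50 replicate 2), 2 to 3 (higher at E70 than E50; 2), 4 to 7 (lower; 5) and 4 to 11 (F test; 8). From E50 to E60 the higher and lower counts moved to 2 and 1 with array weights, 8 and 2 with median centring, 3 and 3 with quantile normalisation and 0 and 3 with those stages alone. They were 3 and 6 with a floor of 16, 3 and 6 with an offset of 32, 4 and 7 with probe sets above background, where 26 members remained, and 6 and 7 with a trended prior. From E50 to E70 they were 1 and 3 with array weights, 7 and 3 with median centring, 0 and 2 with those stages alone and 5 and 8 with a trended prior. From E60 to E70 the lower count was 3 with array weights, 1 with the offset, 2 with probe sets above background, 2 with those stages alone and 4 with a trended prior. The F count was 4 with the mean of the probe sets of a gene and 15 with a trended prior. Smaller shifts of the counts are not listed. Except for the fits of 2 stages alone, the shares of all probe sets called under these alternatives were not computed.

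Same-numbered arrays did not deviate together (r -0.0211 to 0.0261), beside -0.036 to 0.0315 for arrays of other numbers. With 3 arrays per stage this showed no pairing by number, but neither it nor the labels settle whether there was one. A replicate block gave 2 lower from E50 to E60 and 3 in the F test. Taking the mean of all probe sets of a gene reversed COL5A1 (-1.53) and ITGA2 (-2.23) from E50 to E60, and FN1 (0.044) and ITGA2 (-0.54) from E50 to E70; their probe sets differ in direction. Of 246 fits of the 13 called changes under the alternatives, 190 kept direction and call, 54 lost the call and 2 reversed.
The cause of the other moved counts was not tested. Signal over background limits the E50 values: 35.0% of all probe sets were above background on all E50 arrays, against 66.6% at E60 and 67.0% at E70.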
